A study of Nannochloropsis oceanica with 6 samples.

Results

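The genes of chlorophyll and carotenoid synthesis were followed in the small marine alga Nannochloropsis oceanica, strain IMET1, at low and at high CO2. They were taken by their descriptions: a gene belonged to the set when its best protein matches were named after an enzyme or intermediate of tetrapyrrole, chlorophyll or carotenoid synthesis, and no measured value was used. The set held 49 of the 10633 genes in the tables, and all 49 passed the filter on low counts, which left 9244 genes for the test.

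The 3 low CO2 cultures were bubbled with air at 0.04% CO2 for 24 h, after 1 h at 5% CO2, and the 3 high CO2 cultures, the controls, were kept at 5% CO2 throughout. All 6 were separate column reactors of the same strain at 80 µmol photons m-2 s-1 of continuous light, 25 °C and a Tris-buffered pH of 8.2, seeded from the same cells, so the replicates were separate cultures. Poly(A) RNA was sequenced once from each. Levels are given as FPKM, the deposited read density per gene length and library total, and differences as log2 fold changes of low minus high CO2 from edgeR's quasi-likelihood test on counts, so that a positive value is higher in low CO2. An adjusted p is corrected over all 9244 genes by the Benjamini-Hochberg method, and a gene was called at an adjusted p below 0.05.

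Both pigment classes start in the plastid. Tetrapyrroles are built from glutamate carried on a tRNA, by way of aminolevulinic acid and porphobilinogen, to protoporphyrin, where the path divides: magnesium is inserted on the way to chlorophyll and iron on the way to heme. Carotenoids are built from geranylgeranyl diphosphate, which phytoene synthase joins into phytoene; desaturases and isomerases then make lycopene, a cyclase makes beta-carotene, and hydroxylation and epoxidation give the xanthophylls. Nannochloropsis carries chlorophyll a without chlorophyll b, and violaxanthin is its main light-harvesting carotenoid. The descriptions in the tables were matches to other species: 31 of the 49 names contained the word chloroplastic, and 35 had a KEGG orthology entry. Of the genes annotated as antenna proteins, 14 were named after fucoxanthin-chlorophyll proteins and 0 after violaxanthin-chlorophyll proteins.

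The libraries held 4620234 to 6112822 counts. In each group 1 library was less like the other pair. Low CO2 replicate 1 had a Pearson's r of log2 CPM across 9244 genes of 0.923 and 0.932 with the other low CO2 libraries, which were at 0.987 with each other. With high CO2 replicates 1 and 2 it had 0.942 and 0.946, higher than with its own group. Low CO2 replicates 2 and 3 had 0.946 and 0.950 with high CO2 replicate 1, so r did not separate the libraries by CO2. High CO2 replicate 3 had 0.944 and 0.952 with its own group, whose other libraries were at 0.982. These are called the libraries that stood apart. They were picked from these same data, so leaving out 1 or both narrows the spread within groups by choice. The p-values without them are therefore no separate support for a difference. Genes are not independent replicates in these correlations. FPKM carries the total count of each library, from which the scaling used in the test (TMM) departed by factors of 0.938 to 1.07, and the median gene was 0.06 log2 higher in low CO2 by FPKM and 0.01 by the fitted fold changes. In bulk RNA, a change in the share of cells with a transcript and a change in its amount per cell cannot be told apart.

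Phytoene synthase (2.09-fold) and prolycopene isomerase (1.59-fold) of carotene synthesis, and ferrochelatase (2.00-fold) of heme synthesis, had higher levels in every low CO2 library than in any high CO2 library. Glutamate-1-semialdehyde aminomutase (0.717 of the high CO2 level) and the oxygen-dependent coproporphyrinogen oxidase NO12G00680 (0.708 of it) were lower in every low CO2 library. NO12G00680 was the most abundant of 3 genes described as coproporphyrinogen oxidases. Of these, NO27G01310 was named after an oxygen-independent type and was higher in every low CO2 library. With all 6 libraries, however, none of the 49 genes passed edgeR's test. Over all 9244 genes, 1.22% were called as higher and 0.898% as lower in low CO2. At an unadjusted p below 0.05, edgeR had 13 of the 49 genes, 10 of them higher and 3 lower in low CO2, beside 18.6% of all genes. DESeq2's Wald test called 5 of the 49 (6.44% of all genes) and limma on log2(FPKM + 1) called 1 (1.88% of all genes). DESeq2's were phytoene synthase, prolycopene isomerase, the aminomutase, NO12G00680 and NO08G01680, a gene named after beta-carotene isomerase D27. Limma called NO08G01680 only. Ferrochelatase was called by neither and had an adjusted p of 0.169 in edgeR's test. FPKM of the groups did not overlap at 15 of the 49, 12 higher and 3 lower in low CO2, beside 25.4% of all genes, and CPM with the scaling of the test did not overlap at 17, 13 higher and 4 lower, beside 26.7%. The fold changes ran from -0.62 to 1.29, with a median of 0.08, beside 0.01 over all genes.

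**Figure D1:**
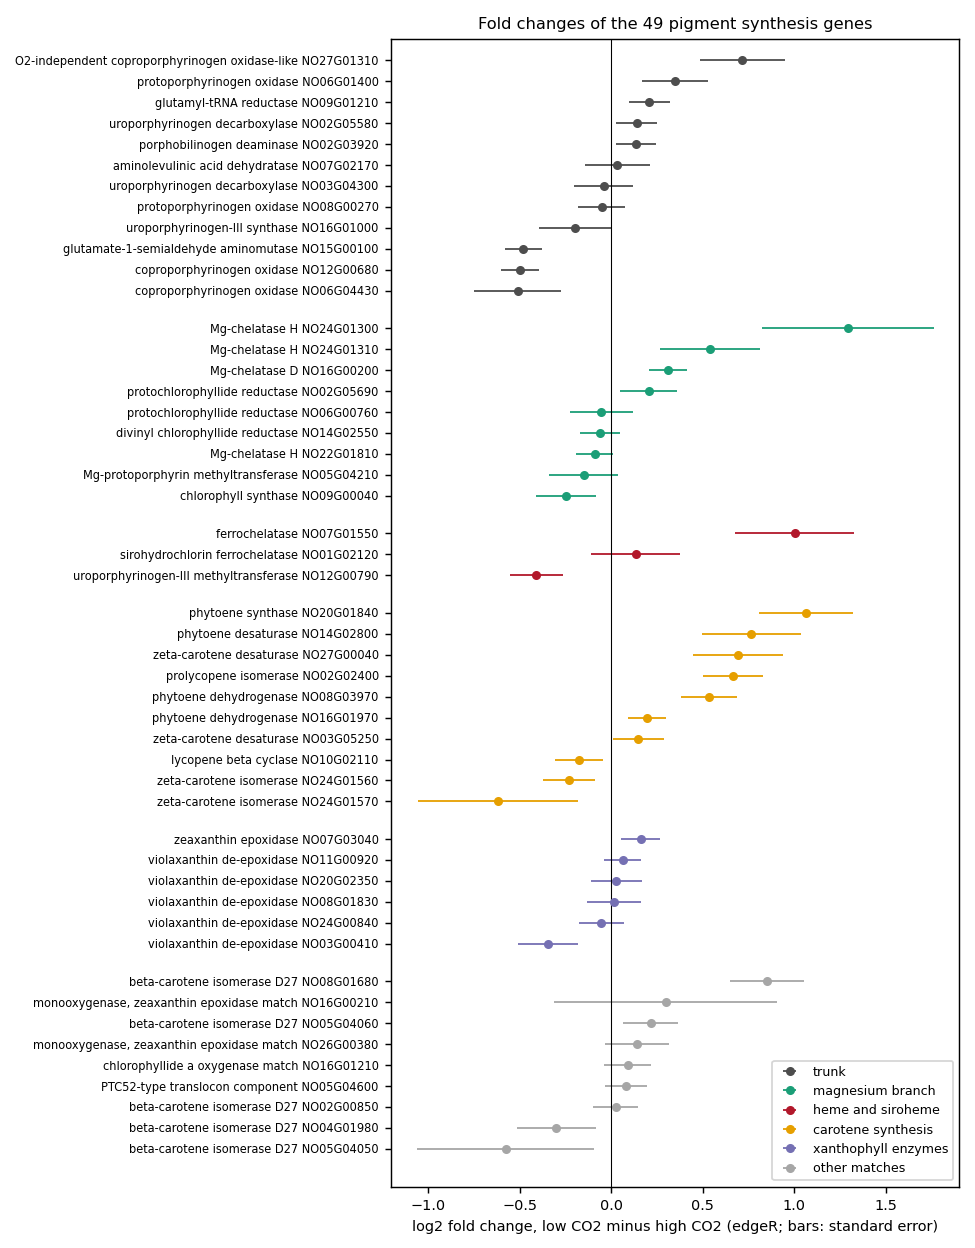
Log2 fold changes (low minus high CO2, horizontal axis) of the 49 genes with their standard errors, sorted within 6 roles given by colour. The carotene synthesis genes lie between -0.62 and 1.06, with 7 of 10 above 0, and the xanthophyll enzymes between -0.35 and 0.16.

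The pigment genes were mostly more abundant than the median gene. Their median level was 80.8 FPKM, against 29.8 FPKM over all genes tested, and 73.5% of them were at or above that median. The most abundant gene with a clear place in a pathway was glutamyl-tRNA reductase (NO09G01210), followed by coproporphyrinogen oxidase (NO12G00680), protochlorophyllide reductase (NO02G05690) and zeaxanthin epoxidase (NO07G03040).

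The carotene synthesis genes had the highest median of the 3 roles with 9 or more pathway genes, 0.37 over 10 genes, against -0.00 for the trunk of tetrapyrrole synthesis and -0.06 for the magnesium branch. Of these 10 genes, 7 were higher and 3 lower in low CO2, 5 had an unadjusted p below 0.05 (all higher), beside 18.6% of all genes in either direction, and none passed the adjusted test. Phytoene synthase (NO20G01840), which makes the first carotene of the pathway, had 37.6, 50.5 and 58.0 FPKM in low CO2 replicates 1, 2 and 3, against 26.5, 26.7 and 13.5 FPKM in high CO2 replicates 1, 2 and 3. Every low CO2 library was above every high CO2 library, and high CO2 replicate 3 was the lowest of the 6. Its log2 fold change was 1.06 (SE 0.26, adjusted p = 0.0903), a 2.09-fold higher level that did not pass over all genes in edgeR's test. The authors' deposited table, which listed 217 genes, gave this gene a log2 fold change of 1.07 with an adjusted p of 0.00660, and it was the 1 gene of the 49 in that table. DESeq2 also called it (log2 fold change 1.07, adjusted p = 0.00584). In scaled CPM, low CO2 replicate 1 was -0.33 log2 from the mean of low CO2 replicates 2 and 3, and high CO2 replicate 3 was -0.87 from the mean of high CO2 replicates 1 and 2. Without both libraries the difference was 0.93 (SE 0.12, adjusted p = 2.75e-06 in edgeR's test). With that choice, 17.2% of all genes were called as higher and 19.4% as lower.

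Phytoene becomes lycopene by paired steps of desaturation and isomerisation. Prolycopene isomerase (NO02G02400), which turns the poly-cis product into all-trans lycopene, had 18.0, 23.3 and 20.5 FPKM in low CO2 replicates 1, 2 and 3, against 11.04, 12.5 and 10.2 FPKM in high CO2 replicates 1, 2 and 3, without overlap (log2 fold change 0.67, SE 0.16, adjusted p = 0.0967). DESeq2 called it (adjusted p = 0.0346), and so did edgeR without low CO2 replicate 1 (log2 fold change 0.69, SE 0.17, adjusted p = 0.0339). Of the genes described as phytoene desaturases or dehydrogenases, the abundant one (NO16G01970) had the smallest difference, with 146, 193 and 180.0 FPKM in low CO2 and 144, 144 and 142 FPKM in high CO2 (log2 fold change 0.19, SE 0.10, adjusted p = 0.354). The scarcer ones had larger log2 fold changes. NO08G03970 had 33.4, 41.6 and 34.4 FPKM in low CO2 and 26.3, 26.2 and 19.5 FPKM in high CO2 (log2 fold change 0.54, SE 0.15, adjusted p = 0.131). NO14G02800, which rested on 25 to 67 counts per library, had 4.32, 6.61 and 6.25 FPKM in low CO2 and 3.56, 2.81 and 3.19 FPKM in high CO2 (log2 fold change 0.77, SE 0.27, adjusted p = 0.193). All 3 were higher in low CO2 with no overlap in FPKM, and none passed. By its KEGG orthology entry, NO08G03970 was assigned to zeta-carotene desaturase, and NO14G02800 to the AL1 entry, AL1 being the phytoene desaturase of the fungus Neurospora.

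The zeta-carotene desaturases, which introduce the last double bonds before lycopene, were again an abundant and a scarce gene. NO03G05250 had 121, 179.7 and 188 FPKM in low CO2 and 148, 137 and 124 FPKM in high CO2 (log2 fold change 0.15, SE 0.14, adjusted p = 0.595). NO27G00040 had 16.1, 30.6 and 32.1 FPKM in low CO2 and 16.6, 17.0 and 12.5 FPKM in high CO2 (log2 fold change 0.69, SE 0.24, adjusted p = 0.195). In both genes low CO2 replicate 1 was at or below the level of high CO2 replicates 1 and 2, -0.41 and -0.75 log2 from the mean of low CO2 replicates 2 and 3. NO27G00040 passed without low CO2 replicate 1 (log2 fold change 0.90, SE 0.17, adjusted p = 0.0143).

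A pair of consecutively numbered gene models, NO24G01570 and NO24G01560, was described as 15-cis-zeta-carotene isomerase, which acts between both desaturases. The longer model (4261 bases), the most abundant carotene synthesis gene, had 227, 74.5 and 106 FPKM in low CO2 replicates 1, 2 and 3, against 245, 257 and 154 FPKM in high CO2 replicates 1, 2 and 3. Low CO2 replicates 2 and 3 were thus below every other library, and low CO2 replicate 1 lay among the high CO2 libraries, 1.56 log2 above the mean of low CO2 replicates 2 and 3. The log2 fold change was -0.62 (SE 0.44, adjusted p = 0.473) with all libraries and -1.33 (SE 0.19, adjusted p = 0.00652) without low CO2 replicate 1. The shorter model (1159 bases) had 84.7, 96.8 and 80.0 FPKM in low CO2 and 110.0, 100.1 and 84.1 FPKM in high CO2 (log2 fold change -0.23, SE 0.14, adjusted p = 0.410). Both models had fractional counts in all 6 libraries, so the division of reads between them is uncertain. Their summed CPM was 1182, 401 and 506 in low CO2 and 1084, 1194 and 849 in high CO2, a ratio of 0.668 (exact two-sided permutation test over 6 libraries, p = 0.3, where the smallest possible is 0.1).

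Lycopene beta cyclase (NO10G02110), which closes the rings of beta-carotene, was at 101 ± 12.3 FPKM in low CO2 and 108 ± 6.33 FPKM in high CO2 (SD, n = 3 each, log2 fold change -0.18, SE 0.13, adjusted p = 0.501), so its groups overlapped. The summed CPM of the 10 carotene synthesis genes was 1947 ± 326 in low CO2 and 2118 ± 188 in high CO2 (SD, n = 3 each), a sum led by the zeta-carotene isomerase models.

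**Figure D2:**
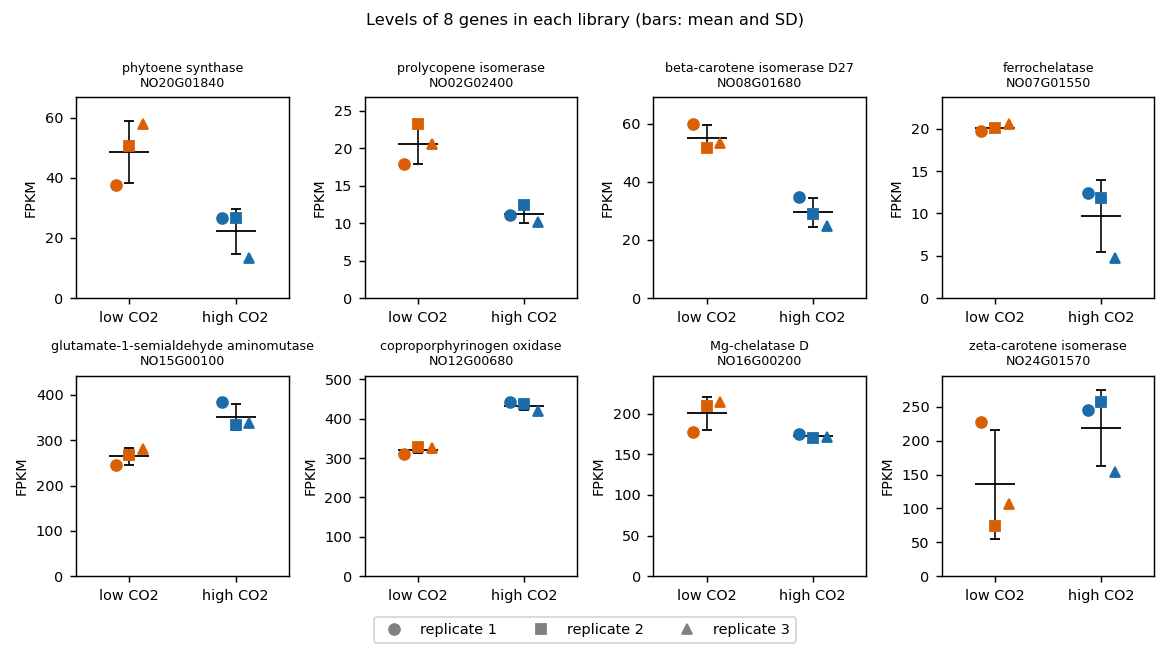
FPKM of 8 genes in each library (vertical axes from 0), low CO2 left of high CO2, with marker shapes for the replicate number and bars for mean and SD. Phytoene synthase, prolycopene isomerase, the D27-type gene and ferrochelatase do not overlap between the groups and are higher in low CO2, the aminomutase and coproporphyrinogen oxidase do not overlap and are lower, and the zeta-carotene isomerase in low CO2 replicate 1 (227 FPKM) lies among the high CO2 libraries.

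The fold changes of the xanthophyll enzymes lay between -0.35 and 0.16, and none had an unadjusted p below 0.05. Zeaxanthin epoxidase (NO07G03040), which converts zeaxanthin to violaxanthin, had 332, 379 and 379 FPKM in low CO2 and 316, 339.5 and 275 FPKM in high CO2, so its groups overlapped by FPKM, though not by scaled CPM (log2 fold change 0.16, SE 0.11, adjusted p = 0.441). Violaxanthin de-epoxidase runs the reverse reaction in excess light, and 5 genes carried its name. NO03G00410 was lower in each low CO2 library by FPKM, with 102, 96.7 and 97.1 FPKM in low CO2 and 108, 113 and 139 FPKM in high CO2 (log2 fold change -0.35, SE 0.16, adjusted p = 0.300), though not by scaled CPM, where the groups overlapped. Log2 fold changes of the other 4 lay between -0.05 and 0.06. NO11G00920 was at 139.8 ± 7.29 FPKM in low CO2 and 128 ± 10.3 FPKM in high CO2, and NO08G01830 at 64.3 ± 14.2 FPKM in low CO2 and 60.2 ± 6.52 FPKM in high CO2 (SD, n = 3 each). NO24G00840 was at 50.8 ± 6.82 FPKM in low CO2 and 50.3 ± 5.37 FPKM in high CO2 and NO20G02350 at 25.7 ± 4.18 FPKM in low CO2 and 23.9 ± 1.78 FPKM in high CO2 (SD, n = 3 each). The adjusted p-values of these 4 were 0.770, 0.962, 0.833 and 0.928. The 5 copies thus spanned a range of levels per length, and each overlapped between the groups by FPKM except NO03G00410. The summed CPM of the 6 xanthophyll enzymes was 1874 ± 26.3 in low CO2 and 1763 ± 91.2 in high CO2 (SD, n = 3 each).

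The trunk of tetrapyrrole synthesis had members on both sides of 0. Its first enzyme, glutamyl-tRNA reductase (NO09G01210), which is a main control point of the pathway in plants, had 504, 571 and 587 FPKM in low CO2 replicates 1, 2 and 3, against 500.4, 484 and 391 FPKM in high CO2 replicates 1, 2 and 3. The low CO2 libraries were all above the high CO2 libraries, of which replicate 3 was the lowest, and the log2 fold change was 0.21 (SE 0.11, adjusted p = 0.354). The next enzyme had a log2 fold change of the opposite sign. Glutamate-1-semialdehyde aminomutase (NO15G00100), which forms aminolevulinic acid, had 245, 267 and 281 FPKM in low CO2 replicates 1, 2 and 3, against 385, 333 and 338 FPKM in high CO2 replicates 1, 2 and 3. All low CO2 libraries were below all high CO2 libraries, and the log2 fold change was -0.48 (SE 0.10, adjusted p = 0.0659), which equals 0.717 of the high CO2 level. Coproporphyrinogen oxidase (NO12G00680), near the end of the trunk, had 310.3, 327 and 327 FPKM in low CO2 replicates 1, 2 and 3, against 443, 436 and 419.7 FPKM in high CO2 replicates 1, 2 and 3, again without overlap and lower in low CO2 (log2 fold change -0.50, SE 0.10, adjusted p = 0.0562). DESeq2 called both as lower (adjusted p = 0.00413 and 0.00209), and so did edgeR without low CO2 replicate 1: -0.49 (SE 0.10, adjusted p = 0.0166) for the aminomutase and -0.56 (SE 0.08, adjusted p = 0.00694) for the oxidase. In scaled CPM, low CO2 replicate 1 was 0.03 and 0.17 log2 from the others of its group at the aminomutase and the oxidase, and high CO2 replicate 3 was -0.00 and 0.02 from its own.

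The other genes described as coproporphyrinogen oxidases were scarce. NO06G04430, of the oxygen-dependent type as well, had 12.7, 12.3 and 20.1 FPKM in low CO2 and 23.4, 18.7 and 19.4 FPKM in high CO2 (log2 fold change -0.51, SE 0.24, adjusted p = 0.299). NO27G01310, named after an oxygen-independent type of cyanobacteria, which uses radical chemistry in place of oxygen, had 23.1, 16.8 and 22.1 FPKM in low CO2 and 12.1, 15.3 and 9.23 FPKM in high CO2, with every low CO2 library above every high CO2 library (log2 fold change 0.72, SE 0.23, adjusted p = 0.167). The oxygen-dependent NO12G00680 was thus the most abundant of the 3 in every library.

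Between these steps, the enzymes that join and shape the ring had log2 fold changes of at most 0.20 in size. Aminolevulinic acid dehydratase (NO07G02170), which makes porphobilinogen, was at 151 ± 20.05 FPKM in low CO2 and 141 ± 14.9 FPKM in high CO2. Porphobilinogen deaminase (NO02G03920), which links porphobilinogen units into a chain, was at 175 ± 2.68 FPKM in low CO2 and 152 ± 9.01 FPKM in high CO2. Uroporphyrinogen-III synthase (NO16G01000), which closes the ring, was at 27.9 ± 0.221 FPKM in low CO2 and 30.8 ± 7.39 FPKM in high CO2. The uroporphyrinogen decarboxylases NO02G05580 and NO03G04300, which trim its side chains, were at 134 ± 16.5 FPKM in low CO2 and 115 ± 8.30 FPKM in high CO2, and at 77.9 ± 7.80 FPKM in low CO2 and 76.2 ± 12.5 FPKM in high CO2 (SD, n = 3 each for all). Their log2 fold changes were 0.03, 0.13, -0.20, 0.14 and -0.04, with adjusted p-values from 0.527 to 0.933. Protoporphyrinogen oxidase, the last enzyme of the trunk, had a pair of genes. NO08G00270 had 97.1, 135 and 142 FPKM in low CO2 and 129, 116 and 122 FPKM in high CO2 (log2 fold change -0.05, SE 0.13, adjusted p = 0.847). NO06G01400 had 129.5, 184 and 184 FPKM in low CO2 and 140.1, 141 and 90.2 FPKM in high CO2 (log2 fold change 0.35, SE 0.18, adjusted p = 0.338). NO06G01400 was lowest in high CO2 replicate 3 and lower in low CO2 replicate 1 than in the other low CO2 libraries. The summed CPM of the 12 trunk genes was 3437 ± 62.3 in low CO2 and 3635 ± 99.7 in high CO2 (SD, n = 3 each).

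In the magnesium branch, the subunits of magnesium chelatase, which commits protoporphyrin to chlorophyll, came on both sides of 0. Subunit D (NO16G00200) had 177, 209 and 215 FPKM in low CO2 replicates 1, 2 and 3, against 175, 170.4 and 171 FPKM in high CO2 replicates 1, 2 and 3. All low CO2 libraries were above all high CO2 libraries, but low CO2 replicate 1 was within 2 FPKM of the highest of them. The log2 fold change was 0.31 (SE 0.11, adjusted p = 0.181), and 0.35 (SE 0.09, adjusted p = 0.0386) without low CO2 replicate 1. Subunit H, the large subunit that holds the porphyrin, was represented by 3 gene models. The abundant one, NO22G01810, had 181, 224 and 225 FPKM in low CO2 and 228, 214 and 195 FPKM in high CO2 (log2 fold change -0.09, SE 0.10, adjusted p = 0.655), so its groups overlapped. The consecutively numbered models NO24G01300 (4164 bases) and NO24G01310 (747 bases) were higher in low CO2 replicates 2 and 3. NO24G01300 had 8.45, 13.8 and 19.1 FPKM in low CO2 and 7.60, 6.53 and 1.90 FPKM in high CO2 (log2 fold change 1.29, SE 0.47, adjusted p = 0.209). NO24G01310 had 54.6, 109 and 99.0 FPKM in low CO2 and 66.0, 66.9 and 39.1 FPKM in high CO2 (log2 fold change 0.54, SE 0.27, adjusted p = 0.328). For NO24G01300 the libraries that stood apart were both low for their group, low CO2 replicate 1 at -0.74 log2 and high CO2 replicate 3 at -1.69. Summed, this pair was at 64.7, 102 and 117 CPM in low CO2 and 62.7, 59.8 and 28.9 CPM in high CO2, without overlap (ratio 1.87, exact two-sided permutation test p = 0.1, the smallest that 3 against 3 allows).

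In the later steps to chlorophyll the groups overlapped at every gene. Protochlorophyllide reductase (NO02G05690), the light-driven enzyme and the most abundant gene of the branch, had 270.4, 446 and 423 FPKM in low CO2 replicates 1, 2 and 3, against 342, 317 and 277 FPKM in high CO2 replicates 1, 2 and 3. Low CO2 replicates 2 and 3 were above all other libraries and low CO2 replicate 1 was below all of them. The log2 fold change was 0.20 (SE 0.16, adjusted p = 0.517), and 0.35 (SE 0.10, adjusted p = 0.0488) without that library. The second gene of this name, NO06G00760, was at 78.3 ± 9.44 FPKM in low CO2 and 78.1 ± 5.28 FPKM in high CO2 (SD, n = 3 each, log2 fold change -0.06, SE 0.17, adjusted p = 0.883). Magnesium-protoporphyrin methyltransferase (NO05G04210) was at 67.9 ± 12.3 FPKM in low CO2 and 72.7 ± 6.20 FPKM in high CO2. Divinyl chlorophyllide reductase (NO14G02550), which reduces a vinyl side chain, was at 179 ± 20.9 FPKM in low CO2 and 178 ± 6.86 FPKM in high CO2. Chlorophyll synthase (NO09G00040), which attaches the phytyl tail, was at 86.4 ± 15.8 FPKM in low CO2 and 97.3 ± 12.9 FPKM in high CO2 (SD, n = 3 for each gene and group). Their log2 fold changes were -0.15, -0.06 and -0.25 (adjusted p = 0.697, 0.780 and 0.444). The summed CPM of the 9 genes was 2925 ± 216 in low CO2 and 2807 ± 110.3 in high CO2 (SD, n = 3 each). No gene of the set was described as magnesium chelatase subunit I, as the oxidative cyclase or as the light-independent protochlorophyllide reductase. The RefSeq gene table for IMET1 lists chlI, ycf59 (the cyclase in algal plastids), chlB, chlL and chlN once each, and these were not analysed here.

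**Figure D3:**
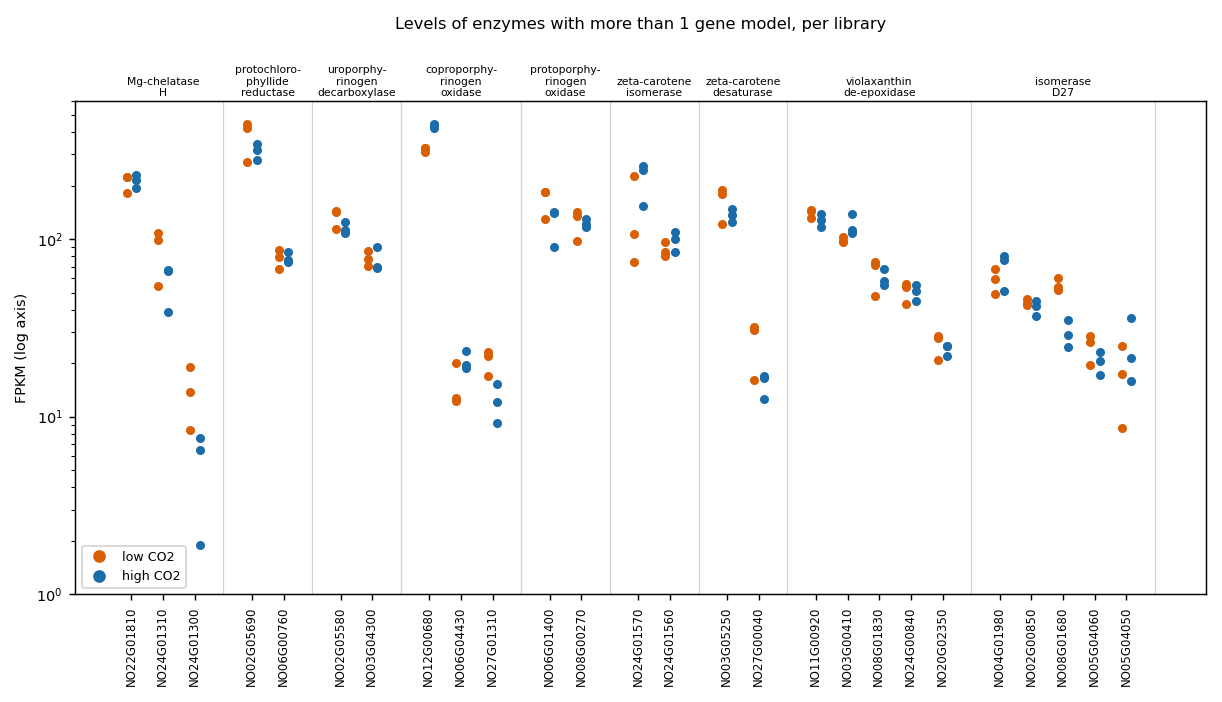
FPKM (log axis) of every library for enzymes described at more than 1 gene model, low CO2 in orange left of high CO2 in blue, models ordered by level. Levels of models with 1 name differ more from each other than between the CO2 groups for magnesium chelatase H (181 to 225 FPKM in low CO2 for NO22G01810 and 8.45 to 19.1 FPKM for NO24G01300).

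On the heme and siroheme side, ferrochelatase (NO07G01550), which inserts iron into protoporphyrin to make heme, had 19.7, 20.1 and 20.6 FPKM in low CO2 replicates 1, 2 and 3, against 12.4, 11.8 and 4.75 FPKM in high CO2 replicates 1, 2 and 3. The low CO2 libraries lay close together above all high CO2 libraries, of which replicate 3 was the lowest, -1.16 log2 from the mean of replicates 1 and 2. The log2 fold change was 1.00 (SE 0.33, adjusted p = 0.169) with all libraries and 0.64 (SE 0.18, adjusted p = 0.00834) without both libraries that stood apart. Without these libraries, 17.2% of all genes were called as higher. Siroheme, the cofactor of nitrite and sulfite reductases, leaves the trunk at uroporphyrinogen III. Its methyltransferase (NO12G00790) had 68.2, 75.8 and 70.8 FPKM in low CO2 and 105, 93.2 and 71.4 FPKM in high CO2 (log2 fold change -0.41, SE 0.15, adjusted p = 0.200), with the scaled CPM lower in every low CO2 library. Sirohydrochlorin ferrochelatase (NO01G02120), which inserts its iron, had 139, 86.4 and 90.5 FPKM in low CO2 and 94.8, 94.8 and 91.9 FPKM in high CO2 (log2 fold change 0.13, SE 0.24, adjusted p = 0.793), and low CO2 replicate 1 was the highest of the 6. The sign of this last difference turned without that library, to -0.21.

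The pattern of words also took in 9 genes that are not clearly part of pigment synthesis. Of these, 5 were named after D27, which isomerises beta-carotene on the way to strigolactones in plants. One of them, NO08G01680, had 60.0, 51.5 and 53.5 FPKM in low CO2 replicates 1, 2 and 3, against 34.8, 28.8 and 24.7 FPKM in high CO2 replicates 1, 2 and 3, without overlap and higher in low CO2 (log2 fold change 0.85, SE 0.20, adjusted p = 0.0870), and DESeq2 and limma called it (adjusted p = 0.0159 and 0.0471). The other 4 (NO02G00850, NO04G01980, NO05G04050 and NO05G04060) overlapped between the groups, with log2 fold changes of 0.02, -0.30, -0.58 and 0.22 and adjusted p-values from 0.464 to 0.932. The consecutively numbered NO05G04050 and NO05G04060 had fractional counts in all 6 libraries, and their sum was 115 ± 5.58 CPM in low CO2 and 107 ± 6.89 CPM in high CO2 (SD, n = 3 each). The most abundant gene of all 49, NO16G01210, was named after chlorophyllide a oxygenase, which makes chlorophyll b in plants and green algae. It had 1522, 1864 and 1953 FPKM in low CO2 and 1567, 1476 and 1760.0 FPKM in high CO2 (log2 fold change 0.09, SE 0.13, adjusted p = 0.734), and its gene ontology terms in the same table were nitrite reductase activity, nitrate assimilation and a 2-iron, 2-sulfur cluster. Its description rests on that match, and the nitrite reductase and nitrate assimilation terms name a role outside pigment synthesis. The gene model is 591 bases long and had fractional counts in all 6 libraries. A homologue of PTC52 (NO05G04600), a plastid envelope protein of the same oxygenase family in plants, was at 109 ± 11.1 FPKM in low CO2 and 98.5 ± 12.7 FPKM in high CO2. The monooxygenases NO16G00210 and NO26G00380, matched to zeaxanthin epoxidase in 1 of their descriptions, were at 8.17 ± 5.31 FPKM in low CO2 and 6.36 ± 3.44 FPKM in high CO2, and at 21.2 ± 3.45 FPKM in low CO2 and 17.7 ± 2.23 FPKM in high CO2 (SD, n = 3 each). Their adjusted p-values were 0.730, 0.818 and 0.698.

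In edgeR's test, the call of these genes turned on low CO2 replicate 1, left out alone or together with high CO2 replicate 3. Without low CO2 replicate 1, edgeR called 9 of the 49 genes, 6 higher and 3 lower in low CO2, where 7.02% and 10.2% of all genes were called as higher and lower. Without both low CO2 replicate 1 and high CO2 replicate 3, with 2 libraries left per group, it called 22 of the 49, 15 higher and 7 lower, where 17.2% and 19.4% of all genes were called. The 9 were the trunk genes NO15G00100 and NO12G00680 and the isomerase NO24G01570, which were lower, and NO20G01840, NO27G00040, NO02G02400, NO16G00200, NO02G05690 and NO08G01680, which were higher. The 22 included all 9 called without low CO2 replicate 1 and the 5 called by DESeq2. The 15 higher ones were 7 carotene synthesis genes, 4 of the magnesium branch, 1 of the trunk, ferrochelatase, NO08G01680 and NO16G01210. The 7 lower ones were the aminomutase, NO12G00680, both zeta-carotene isomerase models, NO05G04210, NO12G00790 and NO03G00410. Leaving out any other single library gave 0 called genes of the 49, where 18 to 68 genes of the whole table were called, so these counts say nothing particular about the pigment genes.

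**Figure D4:**
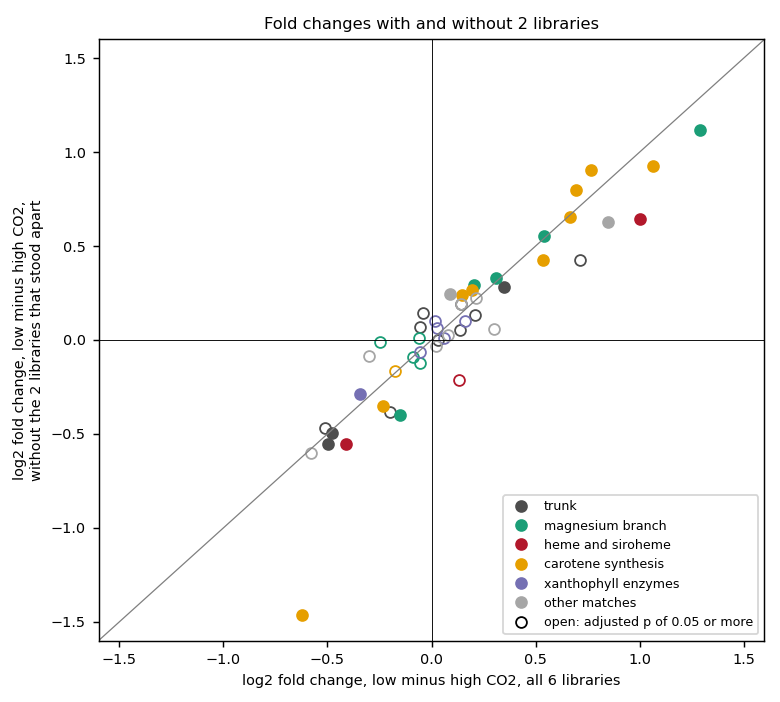
Log2 fold changes (low minus high CO2) of the 49 genes with all 6 libraries (horizontal axis) and without low CO2 replicate 1 and high CO2 replicate 3 (vertical axis), coloured by role, with the grey line marking equal values. Filled points passed without the pair of libraries (22 genes), and the zeta-carotene isomerase NO24G01570 lies farthest below the line (-0.62 and -1.47).

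Genes that supply, carry or break down the pigments were read from 6 further lists of 46 genes, 41 of which were tested. None passed in edgeR's test with all libraries (12 at an unadjusted p below 0.05, 6 in each direction, beside 18.6% of all genes). DESeq2 called 2 as higher (NO06G01620 and NO02G05990), beside 6.44% of all genes in either direction, and limma called 0, beside 1.88%. Without both libraries that stood apart, edgeR called 10 as higher and 11 as lower, beside 17.2% and 19.4% of all genes. Geranylgeranyl diphosphate reductase (NO10G02590), which makes the phytyl tail of chlorophyll, had 960.1, 1340.4 and 1286 FPKM in low CO2 and 971, 989 and 811 FPKM in high CO2 (log2 fold change 0.30, SE 0.12, adjusted p = 0.255). In the plastid isoprenoid supply, where 5 of 6 genes were tested, the largest difference was at isopentenyl-diphosphate isomerase (NO09G01660), with 65.6 ± 8.73 FPKM in low CO2 and 74.0 ± 2.23 FPKM in high CO2 (log2 fold change -0.26, SE 0.10, adjusted p = 0.240). Of these 5 genes, however, 3 were higher and 2 lower in low CO2, with a median log2 fold change of 0.18. The highest was NO07G03590 (log2 fold change 0.25, SE 0.10, adjusted p = 0.255). Of the glutamate tRNA ligases, the one described as cytoplasmic (NO08G02860) had 16.7, 29.1 and 29.2 FPKM in low CO2 and 17.1, 15.2 and 9.07 FPKM in high CO2 (log2 fold change 0.78, SE 0.26, adjusted p = 0.172). The ligase described as chloroplastic and mitochondrial (NO08G03520) was at 128 ± 7.23 FPKM in low CO2 and 125 ± 1.96 FPKM in high CO2 (SD, n = 3 each, log2 fold change -0.04, SE 0.10, adjusted p = 0.847), and its groups overlapped. Heme oxygenase NO23G01290, which opens the heme ring, had 102, 119.8 and 129 FPKM in low CO2 and 107, 110.3 and 55.1 FPKM in high CO2 (log2 fold change 0.31, SE 0.24, adjusted p = 0.523). In the list of pigment breakdown, NO06G01620 had the largest difference (log2 fold change 0.42, SE 0.10, adjusted p = 0.0796). Its KEGG orthology entry (PAO) and 1 description name pheophorbide a oxygenase, but its other description is pyruvate kinase. Next to it was pheophytinase NO05G03950, which removes the phytyl tail in chlorophyll breakdown, with 32.4, 55.7 and 50.5 FPKM in low CO2 and 38.4, 37.8 and 28.8 FPKM in high CO2 (log2 fold change 0.32, SE 0.18, adjusted p = 0.376). The other genes named pheophytinase were lower in every low CO2 library by FPKM. NO26G00350 had 47.7, 49.9 and 39.2 FPKM in low CO2 and 54.9, 51.0 and 56.5 FPKM in high CO2 (log2 fold change -0.31, SE 0.15, adjusted p = 0.328). NO06G01470 had 95.8, 83.1 and 91.0 FPKM in low CO2 and 96.7, 98.9 and 112 FPKM in high CO2 (log2 fold change -0.22, SE 0.15, adjusted p = 0.453). By scaled CPM the groups overlapped at NO06G01470, though not at NO26G00350. Over the 7 breakdown genes tested, 3 were higher and 4 lower in low CO2, with a median log2 fold change of -0.11.

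The 23 antenna proteins, which bind the pigments, had a median log2 fold change of -0.18, with 4 higher and 19 lower in low CO2, beside 0.01 over all genes. The largest difference in size was at NO07G03310, 1 of the 4 higher genes, with 458, 777 and 779 FPKM in low CO2 and 459, 416 and 418 FPKM in high CO2 (log2 fold change 0.56, SE 0.17, adjusted p = 0.147), where low CO2 replicate 1 was at the level of the high CO2 libraries. The largest differences among the 19 lower genes, chosen after their values were seen, were at the consecutively numbered NO09G00450, with 2244, 1989 and 2019 FPKM in low CO2 and 2566, 2519 and 3164 FPKM in high CO2 (log2 fold change -0.46, SE 0.16, adjusted p = 0.193), and NO09G00440. NO09G00440 had 2290.0, 2404 and 2421 FPKM in low CO2 and 2939.6, 2734 and 3502 FPKM in high CO2 (log2 fold change -0.44, SE 0.14, adjusted p = 0.162). Neither overlapped between the groups, and NO09G00450 passed without low CO2 replicate 1 (log2 fold change -0.59, SE 0.15, adjusted p = 0.0342). By FPKM, 7 of the 19 lower genes and 1 of the 4 higher ones did not overlap, beside 25.4% of all genes in either direction. By scaled CPM these were 8 lower and 2 higher ones, beside 26.7% of all genes. In scaled CPM, the antenna list's median in high CO2 replicate 3 was 0.34 log2 from the mean of the other high CO2 libraries, whereas that of the 10 carotene synthesis genes was -0.17. The part of this library alone in both medians was not tested. Without both libraries that stood apart, the medians were -0.07 for the antenna list and 0.35 for the carotene synthesis genes. Without low CO2 replicate 1 alone, they were -0.26 and 0.40.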

How the data were processed

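RNA-seq tables of 6 libraries, 3 per group by the submitters' titles, were used. Per the file headers, each library's table pairs a gene's length and descriptions with its FPKM, TPM and expected count. Expected counts stand in the authors' files without normalization, and here they were rounded to whole numbers. TPM deposited by the authors was not used in a result, and FPKM deposited by the authors describes levels. The submitters' processing notes name STAR, Trim Galore, featureCounts, Picard, edgeR and StringTie; the sources used here give no version, role, strand setting, annotation or build. Of the 49 genes, 9 had fractional counts (over 0.004 from a whole number) in at least 1 library, for a reason the sources used here do not give. A further table deposited by the authors lists 217 genes with a log2 fold change and its p-value, raw and adjusted; at 216 the sign matched mean FPKM in low CO2 over that in high CO2.

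The design foresaw whole-number or rounded expected counts. Genes passed filterByExpr (9244 of 10633), were scaled by TMM and tested with edgeR 4.0.16 (robust quasi-likelihood, R 4.3.3) on all genes, without a replicate block. Standard errors are the log2 fold change over the root of F. The biological coefficient of variation was 23.1%. Scaled CPM are expected counts per TMM-scaled library size, and deviations of a library use log2(CPM + 1). Alternatives were a replicate block, other filters, RLE, DESeq2 1.42.0, limma 3.58.1 on log2(FPKM + 1) for a mean of at least 1 FPKM, and left-out libraries. The test was checked on simulated data with seeded fold changes larger than those of the pigment genes and no library that stood apart. It was not checked at the sizes seen here.

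The members, lists, roles and left-out libraries were chosen with earlier results of these data known. Values per library are given for genes without overlap and a log2 size of at least 0.5, and for the most abundant gene and the gene with the smallest p of each role (17 genes). Other genes with values per library, such as NO15G00100 and NO27G00040, were copies of these or were chosen after their values were seen. None of 160 genes in the RefSeq table matched an identifier, so gene positions and sequences are not given.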

Additional observations from a re-analysis of the deposited data

How the results depend on the processing

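Of the 49 genes, none was called with a replicate block, without a low-count filter or with RLE scaling, nor was any of the 48 tested at a mean of at least 50 counts, where NO14G02800 was left out. DESeq2 called 5 of them and 2 related genes (581 of 9015 over the whole table), and limma called 1 and 0 (182 of 9673). Leaving out 1 library at a time gave 0 to 9 called genes and 0 to 7 related genes, the highest without low CO2 replicate 1 (1610 of 9334 over the whole table) and 0 without any other (18 to 68 genes over the whole table). Leaving out both that stood apart gave 22 and 21 (3402 of 9300). Samples of 1 number share only that number by the titles. Same-numbered libraries had a Pearson's r of log2 CPM of 0.942, 0.939 and 0.887 at replicates 1, 2 and 3. Each low CO2 library had a higher r with a high CO2 library of another number. Under the replicate block 21 genes of the whole table were called, against 196 without it. The sign held at 37 of the 49 genes under all 13 alternatives, or the 12 in which NO14G02800 was tested, and the other 12 had a log2 fold change of at most 0.30 in size. The sign turned with limma (0.039 at NO03G04300, 0.0065 at NO08G00270, 0.0019 at NO14G02550 and 0.011 at NO24G00840) and without both libraries (-0.00052 at NO07G02170, 0.14 at NO03G04300, 0.068 at NO08G00270, 0.011 at NO14G02550, -0.21 at NO01G02120 and -0.032 at NO02G00850). Leaving out 1 library at a time, it turned at genes whose log2 fold changes then ranged over -0.12 to 0.17 at NO07G02170, -0.12 to 0.14 at NO03G04300, -0.13 to 0.043 at NO08G00270, -0.37 to 0.0051 at NO05G04210, -0.21 to 0.065 at NO06G00760, -0.21 to 0.30 at NO01G02120, -0.066 to 0.13 at NO08G01830, -0.025 to 0.10 at NO20G02350, -0.037 to 0.075 at NO02G00850 and -0.45 to 0.80 at NO16G00210. The cause was not tested. With 3 libraries per group, exact tests of single sums cannot go below p = 0.1, and the precision at NO14G02800, with 25 to 67 counts per library, is limited by counting error.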
